A study of Mus musculus with 9 samples.

Results

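The genes described here are 48 genes of synaptic vesicles and regulated exocytosis: SNARE proteins and their regulators, synaptotagmins, vesicle membrane proteins, active zone proteins and proteins of vesicle endocytosis. They were chosen by gene symbol through the annotation of the array platform, with Rab GTPases and granins left out, and all 48 had a probe set, among 18193 genes on the array. The choice was made with earlier results of these data known. Each gene was read by the probe set with 1 gene symbol that had the highest mean over the 9 arrays. The list holds 8 SNARE proteins, 6 SNARE regulators, 10 synaptotagmins and other calcium sensors, 10 vesicle membrane and vesicle-associated proteins, 8 active zone, priming and docking proteins and 6 proteins of vesicle endocytosis.

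The cells were Neuro2a, a mouse neuroblastoma line, treated for 48 h with siControl (a control siRNA), siMyT1 (against Myt1, a zinc finger transcription factor of neural cells) or siLSD1 (against LSD1, a histone demethylase encoded by Kdm1a). All 3 groups received an siRNA, and each had 3 arrays, hybridised with biotin-labelled material from total RNA. The series title places Myt1 in a neural LSD1 complex, and the comparisons address which transcripts differ when either protein is reduced. Whether the 3 replicates of a group were separate cultures is not stated in the labels, and the spread behind each p-value may therefore be technical.

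Synaptic vesicles are filled with transmitter by transporters that use a proton gradient, dock at the active zone and are primed for release. A vesicle SNARE then pairs with SNAREs of the plasma membrane, and synaptotagmins trigger fusion when calcium enters. The vesicle membrane is afterwards retrieved by clathrin-mediated endocytosis, pinched off by dynamin and stripped of its coat. Neuroblastoma lines derive from the sympathetic lineage and carry part of this machinery without forming mature synapses.

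Values are deposited intensities in units whose scale is not given in the sources used here. Array medians were 0.302 to 0.424 units and summed intensities 196271 to 219953 units, and correlations across probe sets were 0.992 to 0.994 within groups and 0.986 to 0.992 between groups. Myt1 measured 4.90 ± 0.34 units in siControl (SD, n = 3), 0.660 ± 0.21 in siMyT1 and 6.95 ± 0.72 in siLSD1. Kdm1a measured 29.0 ± 1.0, 30.9 ± 1.6 and 4.49 ± 0.40 units in the same order, so each target was low in the group named for it. Of 15 neuroblast and neuron markers 14 were measured, with none at 0, and their summed level was 279 to 303 units in siControl, 227 to 239 in siMyT1 and 312 to 348 in siLSD1. The summed level of all 6 fibroblast markers was 1.42 to 2.01, 2.10 to 2.62 and 1.56 to 1.72 units in the same order, that of 4 of 6 glial markers 2.91 to 3.57 units over all arrays, and that of 5 leukocyte markers 1.07 to 1.76 units, with none at 0. The ratio of the 3′ to the 5′ actin control probe set, a sign of RNA integrity, was 1.16 to 1.19 in siControl, 1.11 to 1.12 in siMyT1 and 1.12 to 1.23 in siLSD1. The neuronal marker sum was lowest in siMyT1 and highest in siLSD1, the order of many values given next, but its members did not all follow it. Chgb, the largest contributor to the fall in siMyT1, went from 49.8 to 30.5 units, while Hand2 was lower in both knockdowns (51.7 units in siControl, 37.6 in siMyT1, adjusted p = 0.00334, and 39.8 in siLSD1, adjusted p = 0.00703). Gata3, Isl1 and Dbh were called in no comparison. Of the fibroblast markers only Dcn was called in siMyT1 against siControl (0.777 and 1.29 units, adjusted p = 0.0291), and the other 5 had adjusted p of 0.737 to 0.957. The part of these markers and of the actin ratio, which was lower in siMyT1 than in siControl, was not tested. In bulk RNA, fewer cells of a type and less RNA per cell cannot be told apart.

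The 48 genes were lower in places under siMyT1 and higher in places under siLSD1, most of all among proteins of the vesicle membrane and of endocytosis. Genes are called where the limma adjusted p, over all 18193 genes, was under 0.05. In siMyT1 against siControl 7 of the 48 genes were called, where 7.41% of all genes were. All 7 fell and 0 rose, where 2.29% of all genes fell and 5.12% rose. At an unadjusted p under 0.05, 11 were lower and 1 was higher. No share of all genes at that unadjusted threshold is set beside this count or the later counts at it. In siLSD1 against siControl 12 were called, where 8.9% of all genes were: 11 rose, where 3.97% of all genes rose, and 1 fell, where 4.94% of all genes fell. In siMyT1 against siLSD1 20 were called, where 18.8% of all genes were: 17 were lower, against 5.58% of all genes, and 3 were higher, against 13.2% of all genes. These counts are 14.6% of the 48 genes lower in siMyT1, 22.9% higher in siLSD1 and 35.4% lower in the direct comparison. The F-test over the 3 groups called 17 of them (35.4%), against 19.5% of all genes. The arrays of siMyT1 and siControl did not overlap for 14 of the 48 genes (24% of all genes), lower in 12 (7.55% of all) and higher in 2 (16.5% of all). The arrays of siLSD1 and siControl did not overlap for 20 (26.8% of all), higher in 14 (10.7%) and lower in 6 (16.1%). Those of the 2 knockdowns did not overlap for 29 (33% of all), lower in siMyT1 in 20 (9.7%) and higher in 9 (23.3%). Both knockdowns were set against the same 3 control arrays, so their differences from siControl are not independent of each other. The 48 genes were chosen with earlier results of these data known, so their shares are no independent test.

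**Figure D1:**
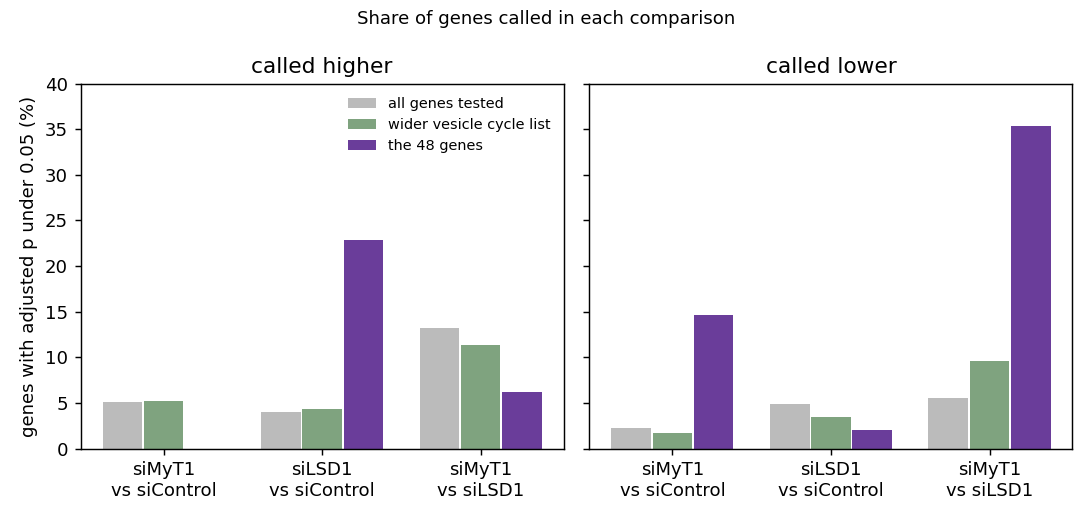
Share of genes called higher (left) and lower (right) in each comparison, in percent, for all 18193 genes, for 115 other genes of the vesicle cycle and for the 48 genes. The 48 genes stand at 22.9% called higher in siLSD1 and at 14.6% and 35.4% called lower in siMyT1 against siControl and against siLSD1.

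Of the 48 genes 27 were called in no comparison. The median log2 difference of the 48 was -0.04 in siMyT1 against siControl, where the median of all genes was 0.05, and it was 0.05 in siLSD1 against siControl, where that of all genes was -0.03. In siMyT1 against siLSD1 the medians were -0.12 and 0.09. Single genes ran from -0.63 to 0.28, from -0.50 to 0.93 and from -1.11 to 0.55 in the 3 comparisons, with a median SE of 0.11. The median of all genes in siMyT1 against siLSD1 moved from 0.09 in the deposited values to -0.04 when each array was centred on its median, and the 48 genes then had a median of -0.24. With that centring the direct comparison had 6.9% of all genes higher and 9.33% lower, and in siLSD1 against siControl 6.1% were higher and 3.14% lower. Of the 48 genes 3 were then higher and 20 lower in the direct comparison, 14 rose and 1 fell in siLSD1, and 9 fell in siMyT1, where 3.7% of all genes rose and 2.78% fell. After quantile normalization 13.2% of all genes were higher and 10.6% lower in the direct comparison, 7.84% higher and 7.58% lower in siLSD1 against siControl, and 7.54% higher and 6% lower in siMyT1 against siControl. Among the 48 genes 38 of the 39 calls in the 3 comparisons then held, all but the direct call of Vamp1. Against siControl it added Syt1, Syp and Rims2, lower in siMyT1, and in siLSD1 Syn3, Sv2a and Napb, higher, and Syt6, lower. In the direct comparison it added Vamp2, Syn1 and Rims2, lower in siMyT1.

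Calls were made mostly among the brighter genes. The shares of all genes given above also count dim genes, and array medians were 0.302 to 0.424 units. No share for all genes of at least 1 unit is set beside them. The part of brightness in the difference between the 48 genes and all genes was not tested. A mean of at least 1 unit over the 9 arrays was found for 33 genes, and these held 7, 12 and 18 of the 7, 12 and 20 calls. The other 15, read between 0.012 and 0.923 units, were Vamp1, Syt9, Syt13, Syn3, Sv2b, Cadps, Cadps2, Unc13b, Rims1, Rph3a, Doc2b, Bsn, Pclo, Amph and Sh3gl2. Of these, Vamp1 and Syn3 were called, both in siMyT1 against siLSD1. A difference on the log2(value + 0.2) scale understates the fold change of such dim genes.

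**Figure D2:**
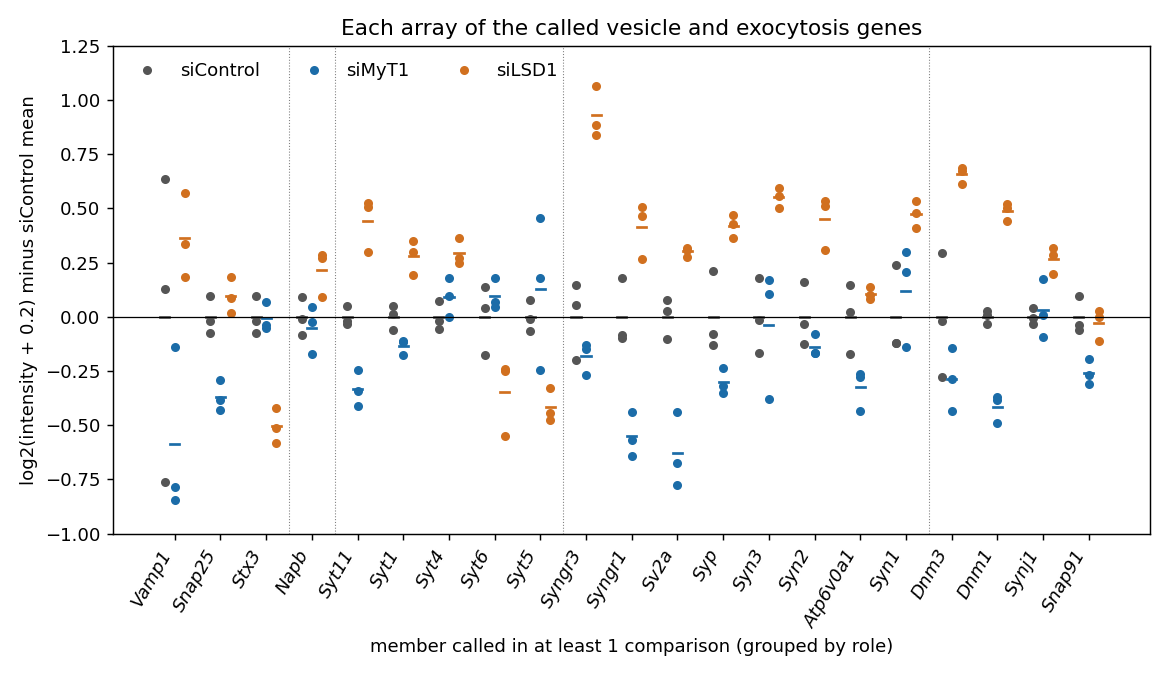
Each point is 1 array of a gene called in at least 1 comparison, as log2(intensity + 0.2) minus the siControl mean of that gene; short bars are group means and dotted lines separate the roles. In Syngr3 the siLSD1 arrays lie far above the other groups, and in Syt11, Syngr1 and Dnm1 the siMyT1, siControl and siLSD1 arrays form 3 separate levels.

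Syt11, Syngr1 and Dnm1 fell in siMyT1, rose in siLSD1 and differed between the knockdowns. The stretches before their transcription starts are shown because these genes were called in all 3 comparisons, with that of Syn1 for contrast because it holds 2 of the 4 motifs searched. The windows are the 250 bases before the start, written 5′ to 3′ on the strand of the gene, from RefSeq annotation of GRCm38.p6. Capitals mark matches on either strand.
Syt11, chr3:88772600-88772849, minus strand: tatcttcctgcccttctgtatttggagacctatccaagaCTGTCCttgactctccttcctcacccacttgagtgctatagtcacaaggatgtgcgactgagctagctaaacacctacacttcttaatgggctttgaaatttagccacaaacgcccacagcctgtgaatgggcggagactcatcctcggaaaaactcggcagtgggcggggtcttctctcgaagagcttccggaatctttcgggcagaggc
Syngr1, chr15:80091084-80091333, plus strand: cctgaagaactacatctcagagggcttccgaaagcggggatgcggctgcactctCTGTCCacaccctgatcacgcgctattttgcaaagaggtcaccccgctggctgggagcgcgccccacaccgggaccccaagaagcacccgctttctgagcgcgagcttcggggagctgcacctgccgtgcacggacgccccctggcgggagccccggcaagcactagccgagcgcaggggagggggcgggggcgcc
Dnm1, chr2:32353330-32353579, minus strand: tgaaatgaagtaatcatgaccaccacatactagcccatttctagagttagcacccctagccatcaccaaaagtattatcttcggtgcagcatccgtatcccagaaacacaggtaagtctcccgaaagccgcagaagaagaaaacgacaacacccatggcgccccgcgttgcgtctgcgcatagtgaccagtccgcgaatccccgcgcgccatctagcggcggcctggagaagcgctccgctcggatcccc
Syn1, chrX:20920919-20921168, minus strand: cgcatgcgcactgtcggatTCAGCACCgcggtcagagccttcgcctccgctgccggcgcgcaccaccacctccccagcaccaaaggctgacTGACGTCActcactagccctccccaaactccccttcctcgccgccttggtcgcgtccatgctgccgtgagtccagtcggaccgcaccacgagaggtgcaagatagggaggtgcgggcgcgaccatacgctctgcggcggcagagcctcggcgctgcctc
The motifs were AAAGTT, the core of Myt1 sites, TGACGTCA, the cyclic AMP response element, and TCAGCACC and GGACAG, parts of the element of REST, a repressor of neuronal genes that works with LSD1-containing complexes. They were searched on both strands, and none overlapped another in the windows shown. Syt11 held GGACAG on the other strand at 211 to 206 bases before the start, and Syngr1 held it on the other strand at 196 to 191 bases before the start. Syn1 held TGACGTCA at 159 to 152 and TCAGCACC at 231 to 224 bases before the start, on the strand of the gene. The Dnm1 window held no match to any of the 4. Windows were found for 37 of the 48 genes, 47 windows in all. GGACAG stood in 23.4% of these and in 18.7% of 32851 windows of all genes, and AAAGTT in 1 of the 47, that of Sv2b, against 12.4% of all windows. TGACGTCA (Sh3gl2 and Syn1) and TCAGCACC (Napa and Syn1) each stood in 2 of the 47 windows, against 1.55% and 1.32% of all. Median GC content was 61.2% in the 47 windows and 52.4% in all windows. A match is a stretch of letters and no evidence of binding.

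Among the SNARE proteins, which fuse the membranes, Snap25 fell in siMyT1 and Stx3 fell in siLSD1, and 7 of the 8 were not called in each of the knockdown comparisons with siControl. Snap25, the plasma membrane SNARE of neurons, read 16.7, 18.1 and 16.0 units in siControl, 12.5, 12.9 and 13.8 in siMyT1 and 19.2, 17.2 and 18.0 in siLSD1. All siMyT1 arrays lay below both other groups, which overlapped each other. Its mean went from 16.9 ± 1.1 in siControl to 13.1 ± 0.65 in siMyT1, 77.1% of the control level (log2 difference -0.37, SE 0.07, adjusted p = 0.0058). In siLSD1 it did not pass the test (0.10, 95% interval -0.05 to 0.24, adjusted p = 0.491), and the knockdowns differed by -0.46 (adjusted p = 0.000387).

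Stx3, a syntaxin of the plasma membrane, read 4.60, 4.99 and 4.41 units in siControl, 4.49, 4.54 and 4.89 in siMyT1 and 3.21, 3.05 and 3.43 in siLSD1. Here the siLSD1 arrays were the low ones and siControl and siMyT1 overlapped. The siLSD1 mean of 3.23 ± 0.19 was 69.2% of the control mean of 4.67 ± 0.30 (log2 difference -0.50, SE 0.08, adjusted p = 0.00167), and siMyT1 was higher than siLSD1 by 0.50 (adjusted p = 0.00102). It was the only one of the 48 genes called lower in siLSD1 with the deposited values and all arrays; other settings added Syt6, and 1 added Stxbp5 and Syt5, as given with the other settings. Another Stx3 probe set, read near the floor, had means of 0.128, 0.0132 and 0.0534 units in siControl, siMyT1 and siLSD1. That probe set was lower in siMyT1 than in siControl (-0.62, adjusted p = 0.0298 over 34945 probe sets). Vamp1, a vesicle SNARE read near the floor, measured 0.359, 0.102 and 0.595 units in siControl, 0.265, 0.0973 and 0.0853 in siMyT1 and 0.560, 0.381 and 0.447 in siLSD1. Its siMyT1 arrays lay below its siLSD1 arrays (log2 difference -0.95, SE 0.31, adjusted p = 0.0481), and the control arrays overlapped both.

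The remaining SNAREs, Vamp2, Vamp3, Stx1a, Stx4a and Snap29, were called in no comparison. Vamp2, the main vesicle SNARE of neurons, differed by -0.27 in siMyT1 (adjusted p = 0.242) and by 0.04 in siLSD1. Vamp3, its widely expressed relative, had 95% intervals of -0.20 to 0.15 and -0.14 to 0.22 around differences of -0.02 and 0.04. For Stx1a, the neuronal partner of Snap25, the intervals were -0.08 to 0.27 and -0.12 to 0.23. The Vamp1 call ended when siMyT1 replicate 2 or 3 or any 1 of the siLSD1 arrays was left out (adjusted p up to 0.159). Averaging all probe sets of a gene ended the Snap25 call against siControl (-0.27, adjusted p = 0.134) and both Stx3 calls (-0.37, adjusted p = 0.0874, in siLSD1 against siControl; 0.21, adjusted p = 0.283, in the direct comparison).

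By the probe set used for each gene, 1 of the SNARE regulators was called, in the direct comparison only. Against siControl 0 of 6 were called in either knockdown, where limma at an unadjusted p under 0.05 had 0 in siMyT1 and, in siLSD1, 1 higher and 2 lower. Napb, a SNAP adaptor that brings the ATPase Nsf to spent SNARE complexes, read 6.04, 6.86 and 6.39 units in siControl, 5.68, 6.64 and 6.31 in siMyT1 and 7.80, 6.87 and 7.86 in siLSD1. The siLSD1 arrays lay above the siMyT1 arrays (log2 difference of siMyT1 against siLSD1 -0.27, SE 0.08, adjusted p = 0.0386), and siLSD1 replicate 2 was barely above the highest control array. The call ended without siMyT1 replicate 1 or 3 or siLSD1 replicate 1 or 3 (adjusted p up to 0.147), and with all 6 Napb probe sets averaged (-0.10, adjusted p = 0.455).

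Nsf itself differed by 0.03 in siMyT1 (95% interval -0.14 to 0.21) and by -0.10 in siLSD1 (-0.27 to 0.07). A further Nsf probe set, of a cross-hybridising suffix, read 10.7 ± 0.42, 10.5 ± 1.1 and 8.02 ± 1.1 units in siControl, siMyT1 and siLSD1. That probe set was lower in siLSD1 than in siControl (-0.42, adjusted p = 0.0282 over 34945 probe sets). Its direct difference was 0.38 (adjusted p = 0.0261). The adaptor Napa differed by 0.13 (-0.03 to 0.28) and 0.03 (-0.12 to 0.19), and Cplx1, a complexin that clamps the SNARE complex, by 0.15 (-0.12 to 0.42) and 0.05 (-0.22 to 0.32). A further Napa probe set read 3.61 ± 0.18, 4.08 ± 0.15 and 2.97 ± 0.24 units in siControl, siMyT1 and siLSD1. It was called only in the direct comparison (0.43, adjusted p = 0.0053). Cplx2 differed by -0.25 in siLSD1 (adjusted p = 0.209) and Stxbp5, or tomosyn, an inhibitor of SNARE assembly, by -0.32 (adjusted p = 0.105). Neither of these passed the test.

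Of the 10 synaptotagmins and other calcium sensors, which carry paired C2 domains, 3 rose in siLSD1 and 1 fell in siMyT1. Not all members of the family sense calcium, and Syt11 is known not to bind it. Syt11 read 14.4, 15.2 and 14.6 units in siControl, 11.0, 11.6 and 12.4 in siMyT1 and 21.0, 18.15 and 21.3 in siLSD1. The 9 arrays fell into 3 separate levels, one for each group. Syt11 fell to 79.2% of control in siMyT1 (11.7 ± 0.69 against 14.7 ± 0.44 units; log2 difference -0.33, SE 0.07, adjusted p = 0.0143) and rose to 137% in siLSD1 (20.1 ± 1.7 units; 0.44, SE 0.07, adjusted p = 0.00152). The knockdowns differed by -0.78 (adjusted p = 1.29e-05). All 5 Syt11 probe sets were lower in siMyT1, by -0.33 to -0.54, and higher in siLSD1, by 0.37 to 0.58.

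Syt1, the calcium sensor of fast release, read 19.0, 18.5 and 17.6 units in siControl, 16.2, 17.0 and 17.0 in siMyT1 and 23.5, 21.0 and 22.7 in siLSD1. The 3 groups did not overlap, but only the rise in siLSD1 passed the test against siControl (22.4 ± 1.3 against 18.4 ± 0.71 units; log2 difference 0.28, SE 0.06, adjusted p = 0.0103), and in siMyT1 the difference was -0.13 (adjusted p = 0.231). The direct difference was -0.41 (adjusted p = 0.000392). Syt4, a synaptotagmin of vesicles and of the secretory pathway, read 19.5, 20.7 and 19.0 units in siControl, 19.7, 21.1 and 22.4 in siMyT1 and 25.4, 23.5 and 23.8 in siLSD1. Only its siLSD1 arrays stood apart, above both other groups (24.2 ± 1.0 against 19.7 ± 0.89 units in siControl; 0.30, SE 0.06, adjusted p = 0.011; direct difference -0.20, adjusted p = 0.0429).

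Syt5 and Syt6 had the opposite order and were higher in siMyT1 than in siLSD1. Syt6 read 5.36, 5.75 and 4.59 units in siControl, 5.39, 5.93 and 5.47 in siMyT1 and 4.36, 3.49 and 4.39 in siLSD1, with the siLSD1 arrays below all others (direct difference 0.44, SE 0.10, adjusted p = 0.00914; siLSD1 against siControl -0.35, adjusted p = 0.0565). Syt5 read 1.79, 1.67 and 1.60 units in siControl, 1.39, 2.39 and 1.93 in siMyT1 and 1.30, 1.15 and 1.19 in siLSD1, again with siLSD1 lowest (direct difference 0.55, SE 0.16, adjusted p = 0.0344). The other 5, Syt7, Syt9, Syt13, Rph3a and Doc2b, were called in no comparison.

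The Syt11 call in siMyT1 ended without siMyT1 replicate 2 (adjusted p = 0.0564), the Syt1 call in siLSD1 without siLSD1 replicate 3 (0.0544) and the Syt4 call in siLSD1 without siControl replicate 1 (0.0543). In the direct comparison the Syt4 call ended without siMyT1 replicate 1 or 2 or any 1 siLSD1 array (adjusted p up to 0.135), and the Syt5 call without siMyT1 replicate 2 or 3 or any 1 siLSD1 array (up to 0.138). With all probe sets averaged, Syt1 in siLSD1 had 0.15 (adjusted p = 0.265) and Syt6 in the direct comparison 0.06 (adjusted p = 0.848). The other Syt6 probe sets were dim, with group means of 0.0153 to 0.221 units.

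The vesicle membrane and vesicle-associated proteins moved most. Of these 10 genes 5 rose in siLSD1, 3 fell in siMyT1 and 7 were lower in siMyT1 than in siLSD1, with 0 called in the other direction in any of the 3, where limma at an unadjusted p under 0.05 also had 0. Their median log2 differences were -0.24, 0.42 and -0.59 in the 3 comparisons. The neuronal marker sum given earlier followed the same order of groups.

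Syngr3 had the largest difference on the log2(value + 0.2) scale among the called rises. Syngr3, a synaptogyrin with 4 membrane spans, read 3.21, 3.43 and 2.67 units in siControl, 2.80, 2.53 and 2.77 in siMyT1 and 5.88, 5.69 and 6.69 in siLSD1. The siLSD1 arrays stood well above the overlapping siControl and siMyT1 arrays. Its mean of 6.09 ± 0.53 in siLSD1 was 196% of the control mean of 3.10 ± 0.39 (log2 difference 0.93, SE 0.10, adjusted p = 9.01e-05), while siMyT1 differed from control by -0.18 (adjusted p = 0.364). A further Syngr3 probe set differed by 0.90 in siLSD1 (adjusted p = 0.00145 over 34945 probe sets). The knockdowns differed by -1.11 (adjusted p = 1.34e-05).

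Syngr1, a related synaptogyrin, read 7.83, 9.53 and 7.89 units in siControl, 5.59, 5.30 and 6.13 in siMyT1 and 12.0, 10.1 and 11.7 in siLSD1. The groups formed 3 separate levels. It fell to 67.4% of control in siMyT1 (5.67 ± 0.42 against 8.42 ± 0.96 units; log2 difference -0.55, SE 0.09, adjusted p = 0.00342) and rose to 134% in siLSD1 (11.3 ± 1.0 units; 0.41, SE 0.09, adjusted p = 0.0131), with a direct difference of -0.96 (adjusted p = 1.65e-05). Another Syngr1 probe set read 5.78 ± 0.90, 4.84 ± 0.50 and 4.62 ± 0.62 units in siControl, siMyT1 and siLSD1, and so was not higher in siLSD1 (-0.31, adjusted p = 0.191). With all Syngr1 probe sets averaged, the siLSD1 difference turned to -0.067 (adjusted p = 0.874), that in siMyT1 was -0.39 (adjusted p = 0.145) and the direct one -0.32 (adjusted p = 0.152). The rise of Syngr1 in siLSD1 thus rests on 1 of its probe sets, and it also ended without siControl replicate 1 or 3 or siLSD1 replicate 1 or 3 (adjusted p up to 0.0693).

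Syp, synaptophysin, the abundant 4-span protein used as a marker of synaptic vesicles, read 5.80, 7.12 and 5.58 units in siControl, 4.88, 5.18 and 4.76 in siMyT1 and 8.58, 8.31 and 7.94 in siLSD1. All 3 groups were apart. It rose to 134% in siLSD1 (8.28 ± 0.32 against 6.17 ± 0.83 units; log2 difference 0.42, SE 0.09, adjusted p = 0.00908), and the siMyT1 difference of -0.30 narrowly missed the threshold (95% interval -0.49 to -0.11, adjusted p = 0.0577). The direct difference was -0.72 (adjusted p = 0.000114). The rise in siLSD1 ended without siControl replicate 1 (adjusted p = 0.05145), and averaging with a second probe set, read at 0.117 to 0.247 units, turned it to -0.045 (adjusted p = 0.92) and made the direct difference -0.26 (adjusted p = 0.262).

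The synapsins tether vesicles to one another and to the cytoskeleton, and Syn1 and Syn2 rose in siLSD1. Syn2 read 14.9, 17.05 and 14.0 units in siControl, 13.6, 14.4 and 13.6 in siMyT1 and 21.8, 18.9 and 22.2 in siLSD1. The siLSD1 arrays were above the other groups, which overlapped. Its siLSD1 mean of 21.0 ± 1.8 was 137% of the control mean of 15.3 ± 1.6 (log2 difference 0.45, SE 0.08, adjusted p = 0.00324), siMyT1 differed by -0.14 (adjusted p = 0.387), and the direct difference was -0.59 (adjusted p = 0.000277).

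Syn1 read 2.66, 3.47 and 2.66 units in siControl, 2.62, 3.39 and 3.62 in siMyT1 and 3.93, 4.13 and 4.30 in siLSD1. Again the siLSD1 arrays alone stood apart, at 141% of control (4.12 ± 0.19 against 2.93 ± 0.47 units; log2 difference 0.47, SE 0.13, adjusted p = 0.0362; direct difference -0.35, adjusted p = 0.076). Syn3, read near the floor, measured 0.349, 0.497 and 0.410 units in siControl, 0.492, 0.462 and 0.273 in siMyT1 and 0.673, 0.730 and 0.707 in siLSD1. It was called only in the direct comparison (-0.59, SE 0.19, adjusted p = 0.0496), and its siLSD1 arrays lay above all others. The Syn1 call ended without siControl replicate 1 or 3 or any 1 siLSD1 array (adjusted p up to 0.142). The Syn3 call ended without siMyT1 replicate 2 or 3 or any 1 siLSD1 array (up to 0.196) and with all probe sets averaged (-0.32, adjusted p = 0.244).

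Sv2a and Atp6v0a1 fell in siMyT1. Sv2a, a vesicle glycoprotein and the binding site of the antiepileptic drug levetiracetam, read 2.09, 2.40 and 2.31 units in siControl, 1.24, 1.62 and 1.34 in siMyT1 and 2.79, 2.86 and 2.87 in siLSD1. The 3 groups did not overlap. In siMyT1 it fell to 61.8% of control, the largest fall among the 7 called there (1.40 ± 0.19 against 2.27 ± 0.16 units; log2 difference -0.63, SE 0.12, adjusted p = 0.00631). In siLSD1 its difference of 0.30 did not pass (95% interval 0.05 to 0.55, adjusted p = 0.144), and the direct difference was -0.93 (adjusted p = 0.000135).

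Atp6v0a1, a subunit of the proton pump that energises transmitter uptake, read 9.42, 10.3 and 8.21 units in siControl, 6.81, 7.69 and 7.60 in siMyT1 and 10.2, 9.97 and 9.82 in siLSD1. The siMyT1 arrays were below the overlapping others (7.37 ± 0.48 against 9.31 ± 1.0 units in siControl; log2 difference -0.33, SE 0.08, adjusted p = 0.03; direct difference -0.43, adjusted p = 0.00241). The call against siControl ended without any 1 of siControl replicates 1 and 2 and the siMyT1 arrays (adjusted p up to 0.104), and both calls ended with all probe sets averaged (-0.20, adjusted p = 0.372, and -0.23, adjusted p = 0.189). Sv2b and Sv2c, relatives of Sv2a, were called in no comparison.

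**Figure D3:**
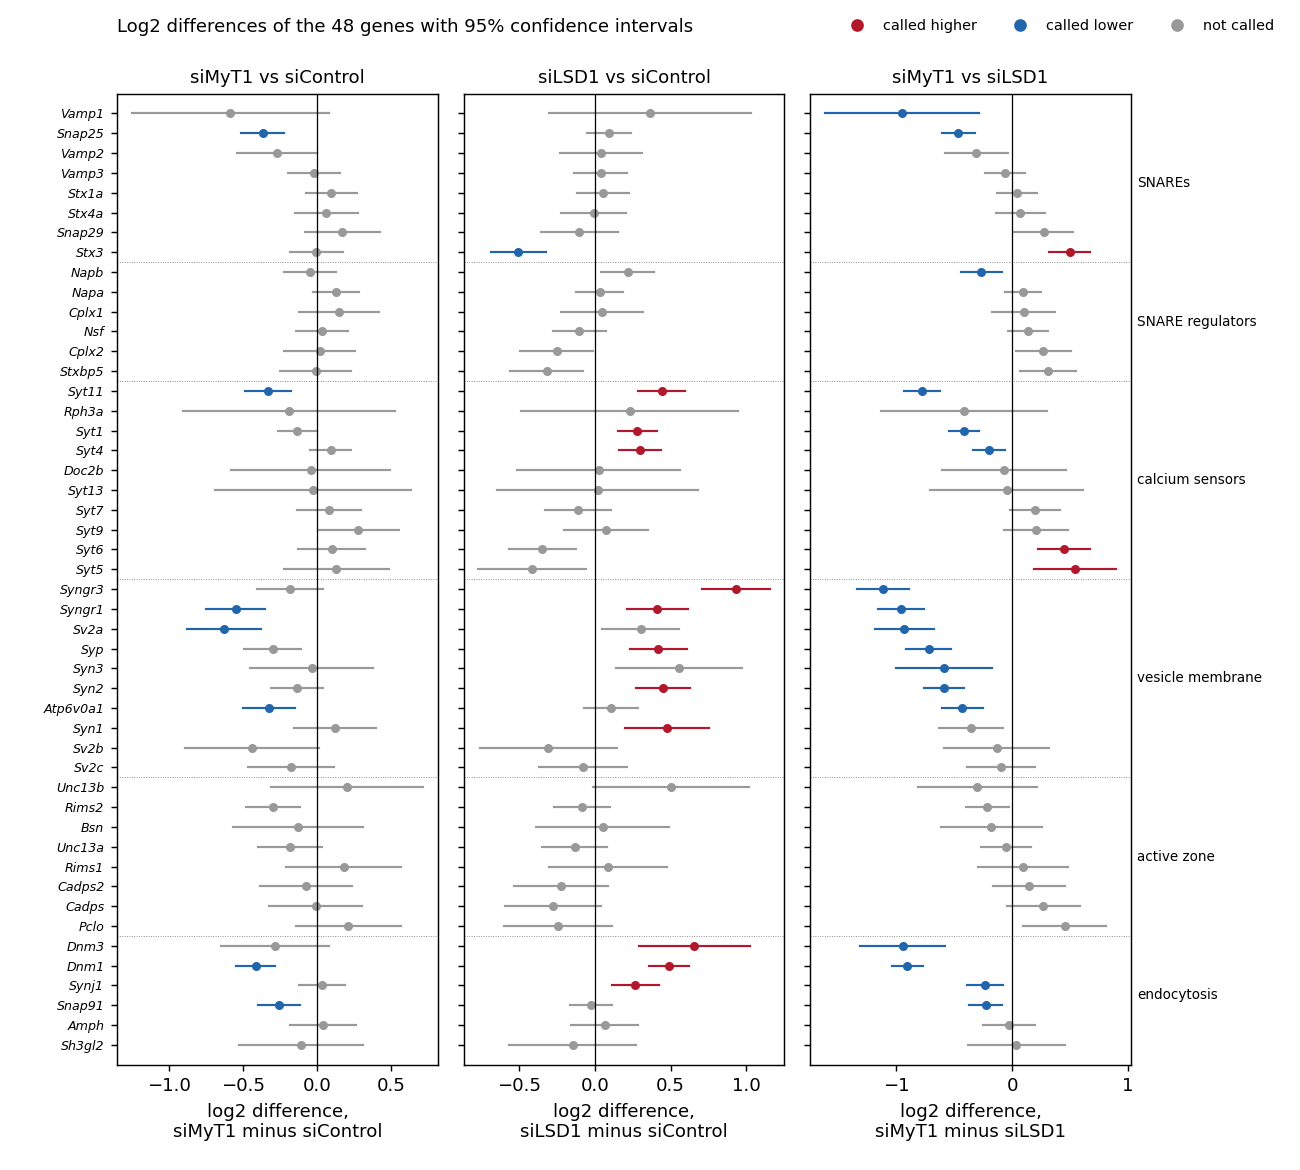
Log2 differences of all 48 genes with 95% confidence intervals for the 3 comparisons named above the panels, grouped by role; red marks called higher, blue called lower and grey not called. The vesicle membrane genes run from -1.11 to -0.10 in the direct comparison, and all active zone genes are grey.

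The active zone, priming and docking proteins had no call in any comparison with the deposited values and all arrays, although Rims2 was called under several other settings. Of 8 genes, limma at an unadjusted p under 0.05 had 1 lower in siMyT1, 0 in siLSD1, and 1 higher and 1 lower in the direct comparison. Rims2, a scaffold that links vesicles to calcium channels, came closest, with 8.77, 10.1 and 8.26 units in siControl, 7.13, 7.25 and 7.44 in siMyT1 and 9.04, 7.57 and 8.88 in siLSD1. Its siMyT1 arrays lay below both other groups (log2 difference from siControl -0.30, 95% interval -0.48 to -0.11, adjusted p = 0.052). Against siControl it was called lower after quantile normalization (adjusted p = 0.00308) and median centring (0.0452), with a pseudocount of 0.05 (0.0435), with the filter on dim genes (0.0143) and without probe sets of cross-hybridising suffixes (0.00973). A further Rims2 probe set, the one used in that last setting, read 6.53 ± 0.42 units in siControl and 4.89 ± 0.46 in siMyT1 (-0.40, adjusted p = 0.0162 over 34945 probe sets). Unc13a, a priming factor, differed by -0.18 in siMyT1 (95% interval -0.40 to 0.03) and -0.13 in siLSD1 (-0.35 to 0.08). The other 6, Unc13b, Rims1, the scaffolds Bsn and Pclo and the priming factors Cadps and Cadps2, averaged under 1 unit.

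Of the endocytosis genes, 2 of 6 fell in siMyT1, 3 rose in siLSD1 and 4 were lower in siMyT1 than in siLSD1. Dnm1, the neuronal dynamin that pinches vesicles off the membrane, read 8.13, 8.47 and 8.37 units in siControl, 6.33, 6.39 and 5.87 in siMyT1 and 11.9, 11.4 and 12.0 in siLSD1. The 3 groups were well separated, with little spread inside each. Dnm1 fell to 74.4% of control in siMyT1 (6.19 ± 0.28 against 8.32 ± 0.18 units; log2 difference -0.42, SE 0.06, adjusted p = 0.00138) and rose to 141% in siLSD1 (11.8 ± 0.34 units; 0.49, SE 0.06, adjusted p = 0.000239). The direct difference of -0.90 had the smallest adjusted p of the 48 genes (1.55e-06). A dimmer Dnm1 probe set differed by -0.31 in siMyT1 (adjusted p = 0.294) and by 0.30 in siLSD1 (adjusted p = 0.282).

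Dnm3, another dynamin, read 0.912, 1.18 and 0.728 units in siControl, 0.820, 0.723 and 0.634 in siMyT1 and 1.59, 1.61 and 1.52 in siLSD1. Only the siLSD1 arrays stood apart, at 168% of control (1.58 ± 0.046 against 0.940 ± 0.23 units; log2 difference 0.66, SE 0.17, adjusted p = 0.0285; direct difference -0.94, adjusted p = 0.00173). Synj1, synaptojanin, a phosphoinositide phosphatase that lets the clathrin coat come off, read 11.9, 11.6 and 11.3 units in siControl, 10.9, 11.7 and 13.1 in siMyT1 and 14.5, 13.4 and 14.2 in siLSD1. Its siLSD1 arrays were the highest and the other groups overlapped (log2 difference from siControl 0.27, SE 0.07, adjusted p = 0.0339; direct difference -0.24, adjusted p = 0.0348).

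Snap91, the clathrin assembly protein AP180, read 17.5, 19.2 and 17.2 units in siControl, 14.4, 15.6 and 14.8 in siMyT1 and 18.3, 16.6 and 17.9 in siLSD1. The siMyT1 arrays were below both other groups (15.0 ± 0.62 against 17.9 ± 1.1 units in siControl; log2 difference -0.26, SE 0.06, adjusted p = 0.0293; direct difference -0.23, adjusted p = 0.0246), and siLSD1 differed from siControl by -0.03. Amph and Sh3gl2, amphiphysin and endophilin A1, were read near the floor and were not called.

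The Snap91 call in siMyT1 ended without siControl replicate 1 or 2 or any 1 siMyT1 array (adjusted p up to 0.0947), and its direct call without replicate 1 or 3 of either knockdown (up to 0.0925). The Dnm3 call in siLSD1 ended without siControl replicate 1 or 3 or any 1 siLSD1 array (up to 0.105). The Synj1 call in siLSD1 ended without any 1 control array or siLSD1 replicate 1 or 3 (up to 0.122), and its direct call without siMyT1 replicate 1 or 2 or siLSD1 replicate 1 or 3 (up to 0.11). With all probe sets averaged, Snap91 had -0.14 in siMyT1 (adjusted p = 0.453) and -0.08 in the direct comparison (0.608), Dnm3 0.45 in siLSD1 (0.108), and Synj1 0.08 in siLSD1 (0.671) and -0.05 in the direct comparison (0.737). The other Snap91 probe set had group means of 0.0125 to 0.0252 units, and the other Dnm3 probe sets 0.0564 to 0.906.

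Some calls depended on the variance model or the arrays fitted. Without the intensity trend in limma the siMyT1 calls of Syt11 (adjusted p = 0.073), Snap91 (0.117) and Atp6v0a1 (0.103) ended, as did the siLSD1 calls of Syt1 (0.0662), Syt4 (0.0673), Syn1 (0.0867), Syngr1 (0.0607) and Synj1 (0.121). Syt11 and Syngr1 were thus not called in all 3 comparisons under that model, whereas Dnm1 was. In the direct comparison the calls of Vamp1 (0.0882), Napb (0.0948), Syt4 (0.133), Synj1 (0.107) and Snap91 (0.0925) ended without the trend. Fitting only the 6 arrays compared ended the siMyT1 call of Atp6v0a1 (0.0599) and the direct calls of Syt4 (0.0654), Syt5 (0.0621), Syn3 (0.0747), Napb (0.0521) and Synj1 (0.0595). The dim genes Vamp1 and Syn3 also lost their direct call with another pseudocount and without probe sets of cross-hybridising suffixes, and Vamp1 after quantile normalization.

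Other settings added calls. Syp was lower in siMyT1 after quantile normalization (adjusted p = 0.00575) and median centring (0.027), with a pseudocount of 0.05 (0.0483), with the filter on dim genes (0.0188) and without siControl replicate 3 (0.0497), and Syt1 was lower in siMyT1 after quantile normalization (0.0191). Syt6 was lower in siLSD1 after quantile normalization (0.016), with a pseudocount of 0.05 (0.0451), with the filter on dim genes (0.0119) and without siControl replicate 3 (0.0295). That filter also called Stxbp5 (0.0435) and Syt5 (0.0342) lower in siLSD1. Syn3, Sv2a and Napb were higher in siLSD1 under both quantile normalization (0.0385, 0.0183 and 0.00786) and median centring (0.0417, 0.0271 and 0.0386). At least 1 setting added, in the direct comparison, Vamp2, Syn1 and Rims2, lower in siMyT1, and Stxbp5, Cplx2 and Napa, higher in siMyT1.

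Further probe sets of the same gene, passed over because their means were lower, were compared with the one used. They read the same RNA on the same arrays and are given for called genes only, so they are no independent test. Among called genes, 4 in siMyT1 against siControl had 8 other probe sets with a mean of at least 1 unit, of which 8 had the same sign. The 4 of these that were called in the same direction all belonged to Syt11, and 0 of the other 4, of Syngr1, Dnm1 and Atp6v0a1, were called. In siLSD1 against siControl 8 genes had 16 such probe sets, 15 with the same sign, the exception being Syngr1, and 8 called in the same direction: 3 of Syt11, 3 of Syn2, 1 of Syngr3 and 1 of Synj1. In the direct comparison 10 genes had 22, with 21 of the same sign and 11 called in the same direction, of which 4 were of Syt11 and 3 of Syn2. None was called in the opposite direction.

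**Figure D4:**
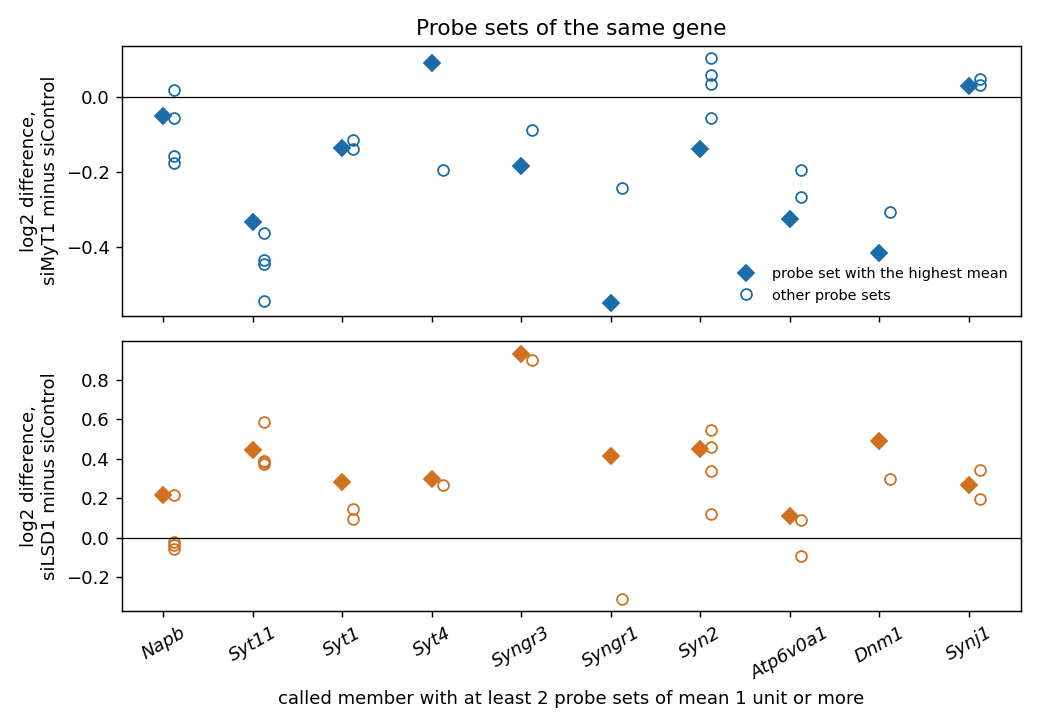
Log2 differences from siControl in siMyT1 (top) and siLSD1 (bottom) for every probe set with a mean of at least 1 unit, for called genes with more than 1 such probe set; filled diamonds are the probe sets used and open circles the others. The 5 Syt11 probe sets lie together in both panels, and the open Syngr1 circle in the bottom panel, at -0.31, lies on the other side of 0 from its diamond at 0.41.

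Of 126 further genes of the vesicle cycle 115 were measured. In siMyT1 against siControl 6 rose and 2 fell (5.22% and 1.74%, against 5.12% and 2.29% of all genes), and in siLSD1 5 rose and 4 fell (4.35% and 3.48%, against 3.97% and 4.94%). In the direct comparison 13 were higher and 11 lower (11.3% and 9.57%, against 13.2% and 5.58%). Scaling moved these counts. Quantile normalization gave 9 rises and 13 falls in siMyT1, 19 and 8 in siLSD1, and 14 higher and 20 lower in the direct comparison. Of all genes it had 7.54% rising and 6% falling in siMyT1 and 7.84% and 7.58% in siLSD1. In the direct comparison it had 13.2% of all genes higher and 10.6% lower. Median centring gave 4 and 4, 13 and 3, and 7 and 18, where the shares of all genes were 3.7% and 2.78%, 6.1% and 3.14%, and 6.9% and 9.33%. None of the genes called in the deposited values changed sign under either scaling.

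By role, 2 of 29 SNARE proteins and regulators rose in siMyT1, and 2 rose and 2 fell in siLSD1. Vamp8, a SNARE of endosomes and of secretion outside neurons, rose in siMyT1 from 2.45 ± 0.38 to 4.30 ± 0.89 units (log2 difference 0.76, adjusted p = 0.00877), and measured 1.69 ± 0.19 in siLSD1 (direct difference 1.23, adjusted p = 0.000103). Stx2, a syntaxin of the plasma membrane, rose in siMyT1 by 0.33 (adjusted p = 0.0236; direct difference 0.48, adjusted p = 0.000846). Sncg, gamma-synuclein, a small vesicle-binding protein of peripheral neurons, rose in siLSD1 from 1.78 ± 0.17 to 3.65 ± 0.045 units (0.97, adjusted p = 0.000239) and measured 1.60 ± 0.26 in siMyT1 (direct difference -1.10, adjusted p = 4.79e-05). In siLSD1 Vti1b, a SNARE of endosomes, rose by 0.25 (adjusted p = 0.0299), and Dnajc5, a chaperone of vesicle SNAREs, and Stx7, an endosomal syntaxin, fell by 0.50 and 0.25 (adjusted p = 0.0214 and 0.0336). Snap23, the widely expressed relative of Snap25, was higher in siMyT1 than in siLSD1 by 0.60 (adjusted p = 0.00181), where the difference of Snap25 was -0.46.

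Of 31 synaptotagmins, tethers and active zone proteins 0 were called against siControl, where limma at an unadjusted p under 0.05 had 1 higher and 4 lower in siMyT1 and 5 higher in siLSD1. In the direct comparison 3 were lower in siMyT1: Rimbp2 (-0.67, adjusted p = 0.0028), Syt17 (-0.57, adjusted p = 0.0024) and Rims3 (-0.38, adjusted p = 0.00264). Among 15 further vesicle membrane proteins and transporters, Slc18a2, which loads monoamines into vesicles, had the pattern of Syt11, Syngr1 and Dnm1: it measured 4.92 ± 0.11 units in siControl, 3.80 ± 0.16 in siMyT1 and 10.1 ± 0.060 in siLSD1. It fell in siMyT1 by 0.35 (adjusted p = 0.00613) and rose in siLSD1 by 1.01 (adjusted p = 1.39e-06), with a direct difference of -1.37 (adjusted p = 8.52e-08). Scamp5, a secretory carrier membrane protein of neurons, rose in siLSD1 by 0.35 (adjusted p = 0.0303; direct difference -0.55, adjusted p = 0.00094). Syngr2, the synaptogyrin of non-neuronal cells, rose in siMyT1 by 0.61 (adjusted p = 0.005), and Scamp3 and Sypl, membrane proteins of secretory carriers, fell in siLSD1 by 0.44 and by 0.37 (adjusted p = 0.00495 and 0.00332; direct differences 0.51 and 0.36, adjusted p = 0.00094 and 0.00248).

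Among 20 further endocytosis proteins Eps15, a clathrin coat adaptor, rose in both knockdowns, from 21.4 ± 1.1 units to 28.9 ± 1.7 in siMyT1 and 36.1 ± 3.1 in siLSD1 (log2 differences 0.43 and 0.75, adjusted p = 0.00356 and 3.23e-05). Both changes were measured against the same control arrays, and the direct difference was -0.32 (adjusted p = 0.00878). Dnm2, the dynamin of all tissues, rose in siMyT1 by 0.31 (adjusted p = 0.0454; direct difference 0.42, adjusted p = 0.00417). Pacsin1 was lower in siMyT1 than in siLSD1 (-0.49, adjusted p = 0.0425) and Sh3glb1 higher (0.19, adjusted p = 0.0492). Of 20 proton pump subunits, Tcirg1 rose by 0.70 and Atp6v1f fell by 0.33 in siMyT1 (adjusted p = 0.00779 and 0.00468), with 0 called in siLSD1, where limma at an unadjusted p under 0.05 had 3 higher and 1 lower. Between the knockdowns Atp6v1c1 and Atp6v1d were higher in siMyT1 (0.24 and 0.23, adjusted p = 0.0174 and 0.0264) and Atp6v1f and Atp6v0e lower (-0.22 and -0.20, adjusted p = 0.0191 and 0.0244).

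Several of these calls ended when 1 array was left out. In siMyT1 against siControl the Stx2 call ended without any 1 control array or siMyT1 replicate 3 (adjusted p up to 0.115) and the Dnm2 call without siControl replicate 1 or 3 or siMyT1 replicate 2 or 3 (up to 0.174). In siLSD1 against siControl the Stx7 call ended without any 1 control array or siLSD1 replicate 2 or 3 (up to 0.112), the Vti1b call without any 1 control array or siLSD1 replicate 1 or 3 (up to 0.14), the Dnajc5 call without siControl replicate 2 or 3 or siLSD1 replicate 2 (up to 0.0878), and the Scamp5 call without replicate 1 or 3 of either group (up to 0.139). Among the direct calls, that of Pacsin1 ended without any 1 siMyT1 array or siLSD1 replicate 2 or 3 (up to 0.171), the Sh3glb1 and Atp6v1d calls without replicate 2 or 3 of either group (up to 0.163 and 0.101), the Atp6v0e call without replicate 1 or 3 of either group (up to 0.0972), the Atp6v1c1 call without siMyT1 replicate 2 or 3 or siLSD1 replicate 3 (up to 0.0659) and the Atp6v1f call without siMyT1 replicate 2 or siLSD1 replicate 1 or 3 (up to 0.0812). Median centring ended the siMyT1 calls of Stx2, Dnm2 and Atp6v1f, the siLSD1 calls of Stx7 and Dnajc5, and the direct calls of Sypl, Sh3glb1, Atp6v1c1 and Atp6v1d.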

How the data were processed

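Expression was measured on 9 one-colour arrays of Neuro2a cells, 3 per group, with groups taken from the sample titles. The deposited table holds linear intensities for 45101 probe sets per array, made by the authors; how they were summarised, background-corrected and scaled is not given in the sources used here. Probe sets were named from the platform annotation: 34945 had 1 symbol, 932 had several and were left out, and 34741 matched RefSeq of GRCm38.p6 by Entrez identifier, which changed 0 symbols. The 11 genes of the wider list that had no named probe set were left out.

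Values were analysed as log2(value + 0.2), 1 probe set per gene, without further scaling. Group means over all 9 arrays were compared with limma 3.58.1 in R 4.3.3 (intensity trend, 6 residual degrees of freedom, two-sided tests), with Benjamini-Hochberg adjustment over 18193 genes and a call at an adjusted p under 0.05. Percentages of control are ratios of mean intensities. An exact permutation test of 3 against 3 arrays cannot go below p = 0.1. The number of arrays limits the precision. On simulated arrays of 18193 genes, of which 200 were changed, the fit recovered, for siMyT1 against siControl, siLSD1 against siControl and siMyT1 against siLSD1, 50%, 59% and 62% of genes changed 1.5-fold and 92%, 91% and 95% of those changed 2-fold, with 8, 9 and 6 unchanged genes called. In the data 1348, 1620 and 3421 genes were called. The adjustment depends on how many genes change, so these rates need not hold for the data.

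The genes and lists were chosen with earlier results of these data known. Every array is given for genes called in a comparison whose arrays do not overlap there, other genes by ranges, and further vesicle genes by role with up to 4 of the smallest adjusted p. Alternatives were quantile normalization, median centring, pseudocounts of 0.05 and 0.8, a filter at a mean of 1 unit, averaging all probe sets of a gene or leaving out those with cross-hybridising suffixes, fits of only the 6 arrays compared, no intensity trend, a replicate block and leaving out each array.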

Additional observations from a re-analysis of the deposited data

How the results depend on the processing

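Of the 39 calls of single genes (7 in siMyT1 against siControl, 12 in siLSD1 against siControl and 20 in siMyT1 against siLSD1), 14 held under every alternative run and 25 were lost under at least 1. Those that held were 2, 4 and 8 in the same order. Against siControl they were Dnm1 and Sv2a in siMyT1, and Syt11, Syn2, Syngr3 and Dnm1 in siLSD1. The treatment of probe sets had the largest effect among the alternatives compared by count: averaging all probe sets of a gene left 3, 6 and 12 genes called in the 3 comparisons and 8 in the F-test, against 17, and turned Syngr1 and Syp in siLSD1 against siControl to -0.067 and -0.045. That average gives dim probe sets the weight of bright ones, so it can shrink a difference read by a bright probe set. Without the intensity trend 4, 7 and 15 genes were called. Leaving out single arrays gave 4 to 8, 6 to 11 and 13 to 17 calls, and 14 to 18 in the F-test; the fewest came without siMyT1 replicate 2 (4) in siMyT1 against siControl, without siControl replicate 1 (6) and siLSD1 replicate 3 (7) in siLSD1 against siControl, and without siLSD1 replicate 1 or 3 (13 each) in the direct comparison. Under median centring 39 of 39 calls held, under quantile normalization and either pseudocount 38 each, and with fits of the 6 compared arrays alone 33. Deviations of same-numbered arrays correlated by -0.03 to 0.04, so the numbers are not taken to pair the arrays; with the replicate block 6, 11 and 14 genes were called in the 3 comparisons and 15 in the F-test. Among the 115 further vesicle genes, counts of 8, 9 and 24 became 22, 27 and 34 under quantile normalization, 8, 16 and 25 under median centring and 17, 18 and 29 of 85 under the filter on dim genes. No share of all genes is set beside the counts under averaging, without the trend, with the block, with arrays left out or with the filter. Whether those counts moved apart from, or along with, the calls among all genes can therefore not be read from them. Genes under 1 unit limit what could be called.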
